A study of Mus musculus with 2 samples.

Results

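The apelin and angiopoietin genes were followed through regenerating mouse tibialis anterior muscle, a muscle of the lower leg, in single-cell RNA sequencing. The set held 6 of the 27998 genes in the count tables and was chosen by name, as the ligand Apln with its receptor Aplnr, the ligands Angpt1 and Angpt2, their receptor Tek and the related receptor Tie1. Muscles were injected with notexin, a venom toxin that injures myofibres, and 1 library was collected 2 days and 1 library 7 days later. Both came from C57Bl/6 animals (C57BL/6J in the study's methods), and each library held 1 mouse according to the cell annotation. The labels give females of 7 months for both, whereas the annotation gives males of 4 months at day 2 and 7 months at day 7, so age and time point cannot be told apart. The 4 Y-linked genes examined held 6575 and 4856 counts and Xist 5 and 1, which goes against the label of female mice. With 1 library per time point there was no replicate and no test between conditions, and the ranges in parentheses are 95% intervals for counting error alone.

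The filtered tables held 41123913 unique molecular identifier (UMI) counts in 4836 barcodes at day 2 and 32356088 counts in 4889 barcodes at day 7. Limits on genes, transcripts and mitochondrial share left 3178 annotated cells at day 2 and 3196 at day 7. Of these, 336 and 333 carried 1 of 4 endothelial labels (Capillary, Stem, Artery and Vein) and 304 and 232 the label Smooth Muscle, the mural label. Levels are counts summed over the cells of a label and divided by all counts of those cells, in counts-per-million (CPM). A single barcode sequence occurred among the kept cells of both libraries (1 shared barcode).

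Apelin is a small secreted peptide that acts on a G protein-coupled receptor, encoded by Aplnr, and is known in sprouting vessels from their leading tip cells. Angiopoietins act on Tie2, the receptor tyrosine kinase encoded by Tek. Angpt1 is known as the ligand that keeps vessels quiescent and is made mainly by cells around the vessel, while Angpt2 is made by endothelial cells, competes with it and loosens vessels for remodelling. Tie1 binds no angiopoietin strongly and modulates Tie2 at the cell surface.

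Coordinates are GRCm38 (mm10) spans of whole genes in the GENCODE annotation. Apln (ENSMUSG00000037010) lies on chromosome X from 48025146 to 48034853 on the minus strand. Aplnr (ENSMUSG00000044338) lies on chromosome 2 from 85136225 to 85139923 on the plus strand. Angpt1 (ENSMUSG00000022309) lies on chromosome 15 from 42424723 to 42676977 on the minus strand, where it overlaps Gm17473 on the opposite strand. Angpt2 (ENSMUSG00000031465) lies on chromosome 8 from 18690263 to 18741562 on the minus strand, where it overlaps Mcph1 on the opposite strand. How strand was used in counting is not given in the sources used here, so reads of such overlapping pairs are assigned with some uncertainty. Tek (ENSMUSG00000006386) and Tie1 (ENSMUSG00000033191) both lie on chromosome 4, from 94739289 to 94874976 on the plus strand and from 118471191 to 118490061 on the minus strand.

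Promoters of 3 of the 6 genes were matched in RefSeq (GRCm38.p6), each from 250 bases before to 50 bases after the start. They are the only ones found for the 6 genes, and the sequences run 5′ to 3′ on the strand of the gene. The windows are chrX:48034804-48035103 on the minus strand for Apln, chr4:94739039-94739338 on the plus strand for Tek and chr4:118489800-118490099 on the minus strand for Tie1. Capitals mark matches, on either strand, to AGGAAG, a core of ETS factor sites. The hypoxia response core ACGTG and the forkhead core TGTTTAC were searched in the same way.
Apln: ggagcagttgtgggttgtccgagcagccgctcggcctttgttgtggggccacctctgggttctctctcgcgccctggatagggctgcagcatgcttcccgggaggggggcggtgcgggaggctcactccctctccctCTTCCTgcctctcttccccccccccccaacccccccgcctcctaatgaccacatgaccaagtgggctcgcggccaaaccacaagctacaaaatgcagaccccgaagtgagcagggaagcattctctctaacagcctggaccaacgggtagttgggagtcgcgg
Tek: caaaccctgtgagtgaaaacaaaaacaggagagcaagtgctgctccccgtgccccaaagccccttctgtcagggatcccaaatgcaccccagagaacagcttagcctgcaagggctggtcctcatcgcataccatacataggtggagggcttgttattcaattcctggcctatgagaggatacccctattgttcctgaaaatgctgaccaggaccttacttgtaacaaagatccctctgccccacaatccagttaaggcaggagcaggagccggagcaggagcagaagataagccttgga
Tie1: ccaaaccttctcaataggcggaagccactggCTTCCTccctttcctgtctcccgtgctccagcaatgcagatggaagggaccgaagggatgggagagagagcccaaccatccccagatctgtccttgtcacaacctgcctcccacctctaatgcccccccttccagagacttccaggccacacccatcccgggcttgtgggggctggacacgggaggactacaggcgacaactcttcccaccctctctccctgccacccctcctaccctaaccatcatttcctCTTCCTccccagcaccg
The ETS letters occurred at 1 position in the Apln window, at 2 in the Tie1 window and at 0 in the Tek window, against 35.4% of 32851 mouse promoters of the same length with at least 1 match. ACGTG and TGTTTAC, held by 19.6% and 3.65% of those promoters, had 0 matches in all 3 windows. A match describes these letters and does not show a bound site.

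Labels were checked against marker genes. The 8 endothelial markers together stood at 7364 CPM at day 2 and 10078 CPM at day 7 in the endothelial labels, and all 8 were detected. At least 3 counts of these markers were held by 335 of the 336 cells at day 2 and by 333 of 333 at day 7. Most cells under the label Smooth Muscle held markers of another cell type. At least 3 endothelial marker counts were held by 295 of its 304 cells at day 2 and by 205 of 232 at day 7, with the endothelial list at 5938 and 8502 CPM. Mural markers other than Rgs5 were counted at least 3 times in 169 and 124 of these cells. Values of this label are therefore given with it split by marker counts. How far doublets contribute was not tested.

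In the endothelial labels the ligand genes Apln and Angpt2 stood lower at day 7 and the 3 receptor genes stood higher. Apln and Angpt2 were 18.9-fold and 9.60-fold lower at day 7, Aplnr stood 7.67-fold higher, and Tek and Tie1 were 2.22-fold and 2.86-fold higher. A gene was called when its CPM ratio reached 2-fold and its interval left out 1, among genes with at least 20 counts over both libraries. In these labels 13.9% of the 9616 genes tested were called higher at day 7 and 9.05% lower, and of the 5 members with enough counts 3 were called higher and 2 lower. Under other settings Aplnr moved from a log2 ratio of 2.94 to 3.77 with classes from markers alone, 3.63 as the mean over cells and 3.49 without cells holding mural markers, and Apln moved from -4.24 to -3.61 with classes from markers alone. Such endothelial classes took kept cells of any label with at least 3 endothelial and fewer than 3 mural or immune marker counts. The call of Tek rests near the 2-fold limit, and its log2 ratio of 1.15 became 0.93 without cells holding mural markers, 0.81 with classes from markers alone and 0.97 with Smooth Muscle cells of endothelial markers added, each short of 2-fold. Angpt1 had 0 counts in both libraries and was not tested, since 0 of 336 and 0 of 333 cells held a UMI. At 3 cells of the total this allows shares of cells with a UMI of up to 0.893% and 0.901%, which is no limit on the cells that express the gene. Markers of the dissociation response moved in these same cells, with the list of 10 genes at 17820 CPM at day 2 and 8904 CPM at day 7. From day 2 to day 7 the capillary list went from 3079 to 8121 CPM and the lymphatic list from 105 to 427. Fibro-adipogenic progenitor markers went from 30.1 to 174 CPM, while the mural and immune lists fell, from 509 to 393 and from 70.5 to 37.5. The part of these lists in the differences was not tested.

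Apln held 2488 counts in the day 2 endothelial labels and 91 at day 7. Its level went from 1026 CPM (986 to 1067) to 54.2 CPM (43.7 to 66.6), which is 18.9-fold lower (15.3 to 23.6). A UMI of Apln was found in 206 of 336 cells at day 2, 61.3% (55.9 to 66.5), and in 29 of 333 at day 7, 8.71% (5.91 to 12.3). The transcript was unevenly spread, since the 34 cells with most Apln held 48.3% of its day 2 counts and the highest cell held 58. Immune-labelled cells with fewer than 3 endothelial marker counts, taken as a background, had a UMI in 1.60% of cells at day 2 and 0.318% at day 7. Their median depths were 8421 and 6124 counts, against 6104.5 and 4217 in the endothelial labels. When each cell was thinned to 2000 counts, which left out 4 and 10 shallower endothelial cells, the endothelial shares were 49.4% and 5.88%.

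Among the labels Apln was highest in Capillary cells at day 2, at 1378 CPM (1313 to 1445), and next in Stem cells at 900 CPM (835 to 969). The Stem level was 0.654 times the Capillary level (0.598 to 0.714), and Vein cells stood at 267 CPM (209 to 335). Artery cells, which line the vessels that feed the capillary bed, held 2 counts at day 2 and 0 at day 7. At day 7 Capillary cells were at 76.6 CPM (59.5 to 97.1), Stem cells at 17.2 (7.43 to 33.9) and Vein cells at 94.8 (53.1 to 156). Capillary and Vein cells did not differ at day 7 beyond counting error, with a ratio of 1.24 (0.657 to 2.19). Within labels the day 7 level was 18.0-fold lower in Capillary cells (14.1 to 23.3), 52.3-fold lower in Stem cells (26.4 to 122) and 2.81-fold lower in Vein cells (1.60 to 5.28).

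The receptor gene Aplnr moved the other way. It held 131 counts in the endothelial labels at day 2 and 695 at day 7, at 54.0 CPM (45.2 to 64.1) and 414 CPM (384 to 446). The share of cells with a UMI was 8.93% (6.11 to 12.5) at day 2 and 62.5% (57.0 to 67.7) at day 7, while the immune background was at 0.0469% and 1.67%. Few cells carried the day 2 signal, and 87 of the 131 counts came from the 12 Vein-labelled cells. Vein cells were the highest label in both libraries, at 318 CPM (255 to 392) and 828 CPM (692 to 982), a 2.61-fold difference (1.97 to 3.46). In Capillary cells Aplnr went from 18.6 CPM (11.8 to 27.9) to 402 (362 to 446), 21.6-fold higher (14.2 to 34.6). Stem cells went from 25.4 CPM (15.5 to 39.2) to 417 (360 to 480), 16.4-fold higher (10.4 to 27.5). Artery cells stayed the lowest label at day 7, at 77.9 CPM (41.5 to 133), which is 0.194 times the Capillary level (0.102 to 0.335).

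**Figure D1:**
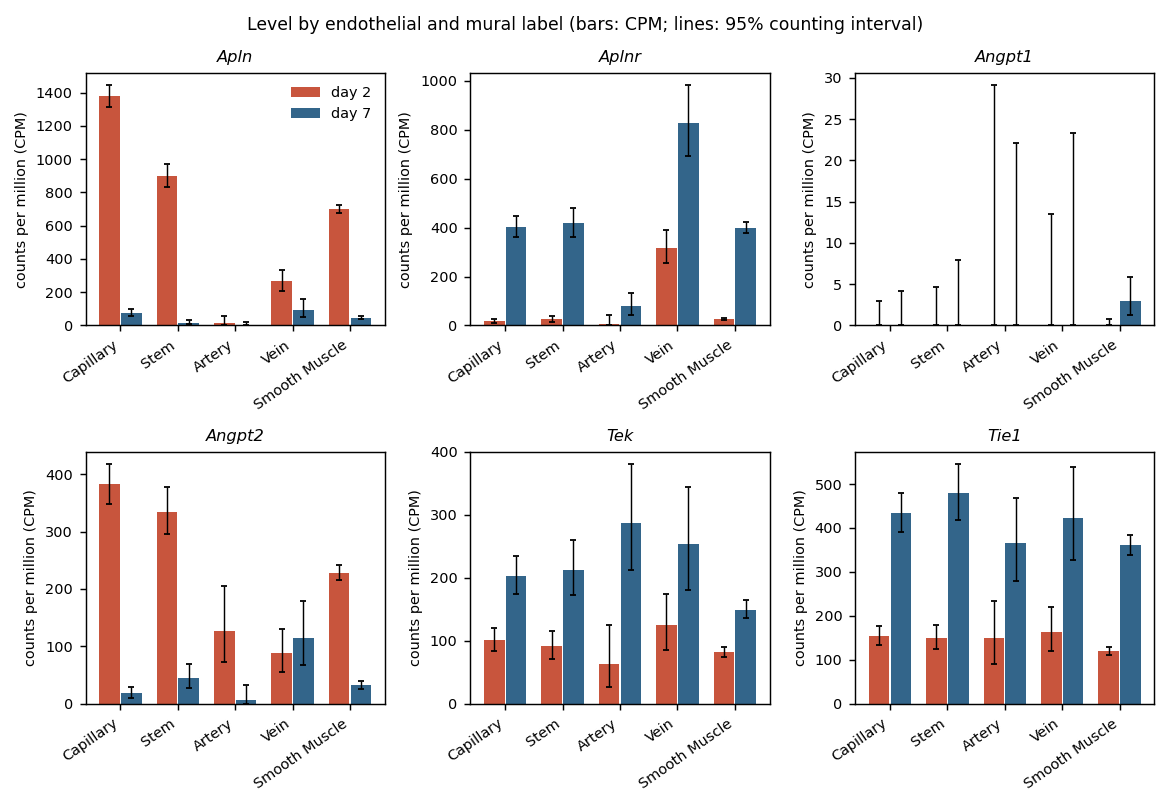
Level of each gene in CPM (y axis, from 0) in the 4 endothelial labels and the Smooth Muscle label (x axis) at day 2 and day 7, with 95% counting intervals as lines. Apln and Angpt2 stand high at day 2 in Capillary and Stem cells, Aplnr, Tek and Tie1 stand higher at day 7, and Angpt1 is at 0 in all 4 endothelial labels.

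Angpt2 held 777 counts in the endothelial labels at day 2 and 56 at day 7, at 320 CPM (298 to 344) and 33.4 CPM (25.2 to 43.3). Its level was 9.60-fold lower at day 7 (7.31 to 12.8). The share of cells with a UMI was 58.0% (52.6 to 63.4) at day 2 and 11.1% (7.94 to 14.99) at day 7, against 3.38% and 1.27% in the immune background. Capillary and Stem cells were nearly level at day 2, at 383 CPM (349 to 419) and 335 CPM (296 to 378), and their ratio of 0.875 (0.750 to 1.02) was within counting error. At day 7 these labels were at 18.0 CPM (10.3 to 29.3) and 45.2 CPM (27.9 to 69.0), which is 21.2-fold (12.9 to 37.4) and 7.42-fold (4.75 to 12.2) lower. Artery cells held 16 counts at day 2 and 1 count at day 7, a ratio of 0.0474 (0.00113 to 0.305).

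The Vein label was the exception for Angpt2, with 24 counts at day 2 and 18 at day 7. Its level was 87.7 CPM (56.2 to 130) and 114 CPM (67.4 to 180), and the ratio of 1.30 (0.664 to 2.49) was within counting error. The label held 12 cells at day 2 and 21 at day 7, and the lymphatic list stood at 32.9 CPM in it at day 2 and 3659 CPM at day 7. At day 2 Flt4 gave all 9 lymphatic marker counts, while at day 7 Ccl21a had 391, Mmrn1 75, Lyve1 68 and Prox1, the regulator of lymphatic identity, 11. In the 10 day 2 cells with fewer than 3 such counts Angpt2 stood at 41.7 CPM (16.8 to 85.96), and the 2 other cells held 17 of the 24 counts. In the 19 day 7 cells with fewer than 3 lymphatic marker counts Angpt2 stood at 84.3 CPM (43.5 to 147), and the 2 other cells held 6 of the 18 counts. All 131 Aplnr counts of the day 7 Vein label came from those 19 cells.

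The receptor Tek differed less between the libraries. It held 239 counts in the endothelial labels at day 2 and 367 at day 7, at 98.5 CPM (86.4 to 112) and 219 CPM (197 to 242), a 2.22-fold difference (1.88 to 2.62). The share of cells with a UMI was 42.9% (37.5 to 48.3) and 60.1% (54.6 to 65.4), and the immune background was at 0.282% and 0.635%. The labels lay close together. At day 2 they ran from 63.1 CPM (27.3 to 124) in Artery cells to 124 CPM (85.996 to 174) in Vein cells, with overlapping intervals. At day 7 Artery cells were the highest at 287 CPM (212 to 381), 1.42 times Capillary cells (1.01 to 1.96).

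Tie1 held 372 counts in the endothelial labels at day 2 and 736 at day 7, at 153 CPM (138 to 170) and 439 CPM (408 to 472), a 2.86-fold difference (2.52 to 3.25). A UMI was found in 59.2% (53.8 to 64.5) and 84.4% (80.0 to 88.1) of cells, against 0.704% and 1.51% in the immune background. All 4 labels lay between 150 and 164 CPM at day 2 and between 365 and 479 CPM at day 7, and neighbours in this order had overlapping intervals. Tie1 was thus the most even of the genes across vessel labels in both libraries, by these ranges. The count ratio of Tie1 to Tek was 1.56 (1.32 to 1.84) at day 2 and 2.01 (1.77 to 2.28) at day 7 in the endothelial labels, and the change of this ratio was 1.29-fold.

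The change of a ligand against its receptor was larger than that of the receptors among themselves. In the endothelial labels the count ratio of Apln to Aplnr was 19.0 (15.9 to 22.8) at day 2 and 0.131 (0.104 to 0.163) at day 7, so it changed by 145-fold. Counts of different genes are set against each other here to follow the change between libraries and not to rank the genes.

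Free RNA caught in droplets was measured in barcodes with 1 to 100 counts. Apln stood at 73.7 CPM in it at day 2 and 9.26 at day 7, and Aplnr at 1.64 and 36.8. Angpt2 was at 19.98 and 3.83, Tek at 10.5 and 33.8, and Tie1 at 18.0 and 59.6. These levels moved in the same direction as the levels in endothelial cells. All were lower than the endothelial levels of the same library, and SoupX, the ambient RNA correction, removed at most 0.623% of the counts of any of these 5 genes from the endothelial labels. With barcodes of 1 to 10 counts taken instead, 3 ambient values lay outside their counting interval and 9 inside. The 3 were Angpt2, at 31.6 CPM at day 2 and 1.81 at day 7, and Apln, at 88.7 at day 2.

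**Figure D2:**
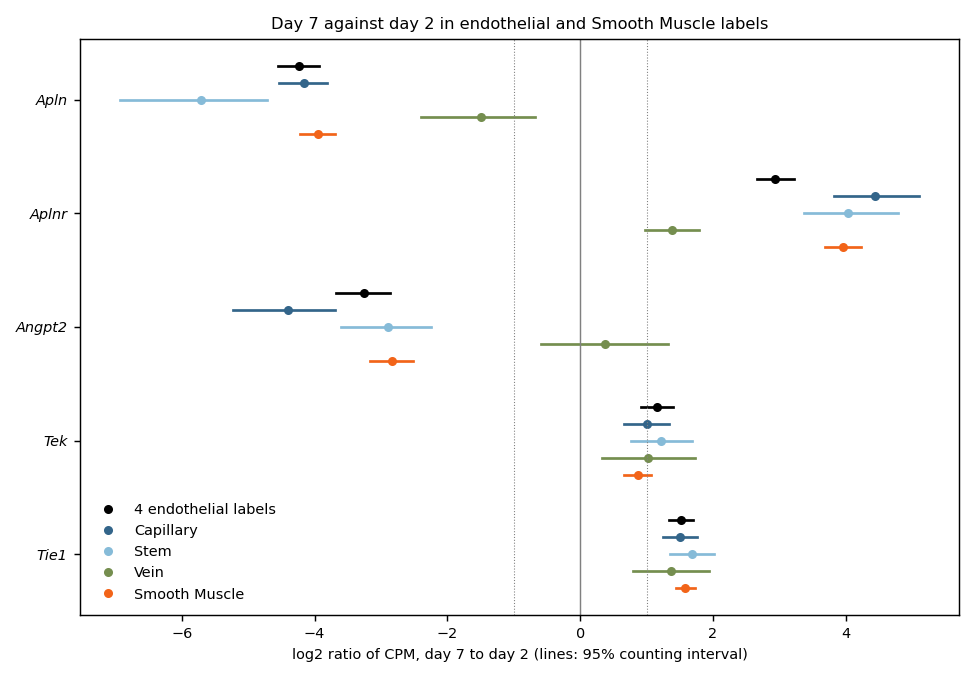
Log2 ratio of CPM at day 7 to day 2 (x axis) for the 5 genes with counts in both libraries (y axis), with points for all 4 endothelial labels together, for Capillary, Stem and Vein cells and for the Smooth Muscle label. Lines are 95% counting intervals and dotted lines mark 2-fold, and the Vein label sits nearest to 0 for Apln and Aplnr and spans 0 for Angpt2.

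At day 2 some genes were counted in the same cells. In endothelial cells thinned to 2000 counts, Angpt2 was found in 81 of the 164 cells with Apln, 49.4% (41.5 to 57.3), and in 39 of the 168 cells without it, 23.2% (17.1 to 30.3). Tek showed the reverse, with 9.15% (5.21 to 14.6) of cells with Apln and 22.0% (16.0 to 29.1) of cells without it. Aplnr was found in 1.83% (0.379 to 5.25) and 5.95% (2.89 to 10.7). Placental growth factor, Pgf, was found in 75.6% (68.3 to 82.0) of the cells with Apln and 30.4% (23.5 to 37.9) of those without. It was the tip cell gene with the widest gap of the 10 compared in this way. Cxcr4 (16.5% and 7.14%), Adm (17.7% and 12.5%) and Nid2 (10.4% and 5.95%) lay the same way as Pgf, with overlapping intervals. Unc5b (12.2% and 21.4%) and Plvap (1.83% and 8.93%) lay the other way and Dll4 (40.2% and 42.9%) and Pdgfb (32.9% and 29.8%) differed little, all 4 with overlapping intervals. Esm1 and Kcne3 were each found in 1 cell, without Apln. At day 7 only 19 thinned cells had Apln, of which 1 had Angpt2, so the pairing could not be followed there. Cells of 1 library are not replicates, and these shares describe that library.

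Among the labels outside the endothelial ones, Smooth Muscle held the most counts of Apln, Aplnr, Angpt2, Tek and Tie1 in both libraries. Apln went from 700 CPM (677 to 723) to 45.4 (37.7 to 54.2), Angpt2 from 228 (215 to 242) to 32.1 (25.7 to 39.6), Aplnr from 25.8 (21.6 to 30.6) to 400.4 (377 to 425), and Tie1 from 120 (111 to 130) to 360 (338 to 384). In this label 13.5% of the 11039 genes tested were called higher at day 7 and 7.35% lower, and of the 5 members tested Aplnr and Tie1 were called higher and Apln and Angpt2 lower. For Angpt2 the direction turned without cells holding endothelial markers (log2 ratio 0.87, on 1 and 6 counts) and with classes from markers alone (0.67). Tek, at 82.0 and 149 CPM, was 1.82-fold higher (1.59 to 2.09) and did not reach 2-fold. With classes from markers alone its log2 ratio was 1.62, past 2-fold, and that of Apln was -2.20 in place of -3.95. Such mural classes took kept cells of any label with at least 3 mural and fewer than 3 endothelial or immune marker counts. Under FAP (fibro-adipogenic progenitor) labels, 82 cells at day 2 and 346 at day 7 held at least 3 mural counts besides Rgs5 and fewer than 3 endothelial ones. Smooth Muscle cells of this kind numbered 9 and 27, so marker-class values are not of the Smooth Muscle label alone. The dissociation list stood at 16982 CPM at day 2 and 8545 CPM at day 7 in this label, and its part was not tested. Against the endothelial labels of the same library, the Smooth Muscle label was lower at day 2 for all 5, with ratios from 0.478 for Aplnr to 0.832 for Tek. The median depth was 13232 counts against 6104.5, and for Tek the direction turned when cells were thinned to equal depth (log2 ratio 0.023), while Tie1 moved from -0.35 to -1.08. At day 7 the ratios of Apln (0.837, 0.633 to 1.11), Aplnr (0.967, 0.878 to 1.06) and Angpt2 (0.962, 0.680 to 1.37) were within counting error, and Tek and Tie1 were lower, at 0.683 (0.592 to 0.789) and 0.821 (0.745 to 0.905). With classes from markers alone the day 7 log2 ratios were -4.93 for Apln, -7.14 for Aplnr and -3.77 for Angpt2, and without cells holding markers of the other class that of Angpt2 was 0.50.

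Within this label Apln, Aplnr, Tek and Tie1 were highest in cells with endothelial markers alone, whereas Angpt2 was not at day 7. Cells with at least 3 endothelial marker counts and fewer than 3 mural ones, 135 at day 2 and 108 at day 7, held Apln at 991 CPM (944 to 1039) and 64.0 (50.2 to 80.5). Their ratios to the endothelial labels, 0.966 (0.907 to 1.03) and 1.18 (0.855 to 1.62), were within counting error. Cells with both kinds of marker, 160 and 97, held Apln at 558 CPM (533 to 584) and 34.4 (25.5 to 45.3). Cells with mural markers and without endothelial ones numbered 9 and 27, with the mural list at 13476 and 39224 CPM, and they are the cells whose markers match the label. Apln, Aplnr and Tek had 0 counts in them in both libraries, of 34581 and 113552 counts in all, which allows up to 86.8 and 26.4 CPM. At day 2 they were at least 11.8-fold lower in Apln than the endothelial labels. For Aplnr and Tek at day 7 these cells were at least 15.7-fold and 8.28-fold lower than the endothelial labels. Angpt2 stood at 286 CPM (261 to 312) at day 2 and 16.7 CPM (10.03 to 26.0) at day 7 in the cells with endothelial markers only, and at 201 CPM (186 to 217) and 42.6 CPM (32.7 to 54.6) in the cells with both. It had 1 count in the cells with mural markers only at day 2 and 6 at day 7, at 52.8 CPM (19.4 to 115), and its ratio to the endothelial labels at day 7 of 1.58 (0.557 to 3.67) was within counting error. Angpt1 had 0 counts at day 2 and 3 at day 7 there, of the 8 counts in the whole label.

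**Figure D3:**
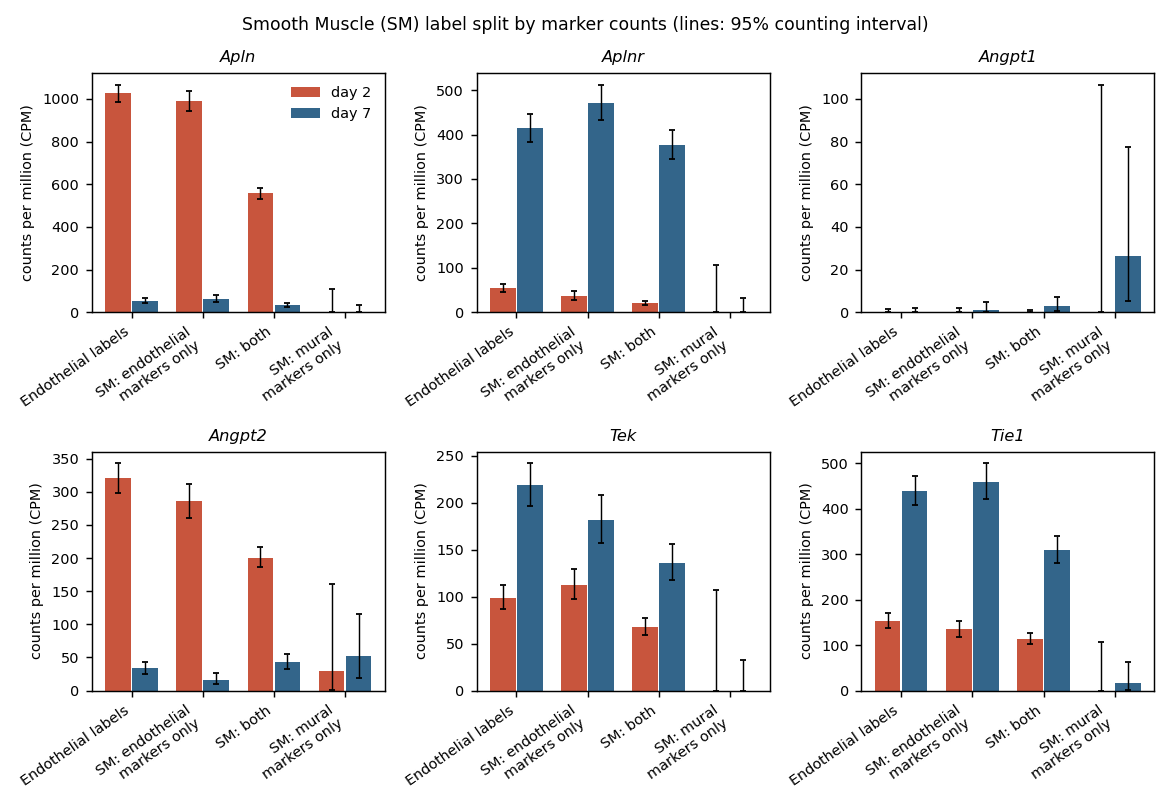
Level of each gene in CPM (y axis, from 0) in the endothelial labels and in the cells labelled Smooth Muscle (SM), split by whether they hold at least 3 counts of endothelial markers, of mural markers other than Rgs5, or of both. Lines are 95% counting intervals, and the 9 and 27 cells with mural markers only hold no Apln, Aplnr or Tek.

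Angpt1 was counted mainly in FAPs, or fibro-adipogenic progenitors, which are mesenchymal cells that lie between myofibres. These labels held 61 of the 69 Angpt1 counts of all kept cells at day 2, 88.4%, and 476 of 564 at day 7, 84.4%. Its level in FAPs was 11.9 CPM (9.09 to 15.3) at day 2 and 58.4 CPM (53.3 to 63.9) at day 7, 4.91-fold higher (3.76 to 6.53). In these labels 24.8% of the 11851 genes tested were called higher at day 7 and 13.8% lower. The list of 5 FAP markers stood at 8509 and 51407 CPM in the same cells and the dissociation list at 6774 and 9864 CPM, and their part in the Angpt1 and Tek values was not tested. Pro-remodeling FAPs went from 15.4 CPM (11.6 to 20.1) to 56.0 (50.1 to 62.4) and Adipogenic FAPs from 14.0 (4.56 to 32.8) to 74.7 (62.1 to 89.1). Stem FAPs held 2 counts at day 2 and 23 at day 7, at 37.5 CPM (23.8 to 56.3). At day 7 the Adipogenic level was 1.33 times the Pro-remodeling level (1.07 to 1.64). FAP labels held 215 cells at day 2 and 805 at day 7, with median depths of 24329 and 8429 counts, so the higher share of FAPs with a UMI at day 7, 38.1% against 19.5%, came at lower depth. Thinned to 2000 counts, the Pro-remodeling share was 4.35% (1.61 to 9.22) at day 2 and 11.5% (8.84 to 14.7) at day 7. Ambient Angpt1 was at 0 of 3053639 counts at day 2 and at 8.66 CPM at day 7.

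Other labels with Angpt1 at day 7 were muscle stem cells (MuSCs), at 26.6 CPM (16.3 to 41.1) in 18 of 137 cells, and myoblasts and progenitors, at 16.5 CPM (11.9 to 22.4) in 27 of 175 cells. At day 2 these labels held 21 cells and 1 cell, with 0 counts. NK cells had 4 counts in 4 of 21 cells at day 2, 44.2 CPM (12.0 to 113), and 5 counts in 3 of 111 cells at day 7. Over all kept cells the count ratio of Angpt2 to Angpt1 was 30.3 (23.9 to 39.1) at day 2 and 0.356 (0.302 to 0.419) at day 7, so it changed by 85.1-fold. FAPs made up more of the day 7 cells, so cell composition and level per cell both enter this ratio. In the endothelial and Smooth Muscle labels alone it was 17.9 (8.83 to 42.2) at day 7, on 8 Angpt1 counts, and Angpt1 had 0 counts there at day 2.

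Tek was also counted in FAPs, where Tie1 held 7 counts at day 2 and 14 at day 7. Its FAP level went from 6.23 CPM (4.26 to 8.80) at day 2 to 31.2 CPM (27.5 to 35.2) at day 7, 4.999-fold higher (3.45 to 7.47). Leaving out FAPs with 3 or more endothelial marker counts gave 5.05-fold (3.41 to 7.76). The Stem FAP label stood highest. It held 12 counts in 7 of 47 cells at day 2 and 81 counts in 41 of 78 cells at day 7, at 9.45 CPM (4.88 to 16.5) and 132 CPM (105 to 164), 14.0-fold higher (7.58 to 28.2). At day 7 this was 5.37 times the Pro-remodeling level (4.04 to 7.09) and 0.651 times the level in Capillary cells (0.495 to 0.851). Tie1 had 0 counts in the same 78 cells, at least 88.7-fold lower than in Capillary cells, and 0 of these cells held 3 endothelial marker counts. Over all FAP labels Tek stood near or under its ambient level, which was 10.5 CPM (7.17 to 14.8) at day 2 and 33.8 CPM (28.9 to 39.3) at day 7, whereas the Stem FAP level at day 7 stood above it. How far free RNA contributes to Tek in FAPs was not tested. SoupX removed 3.07% of the FAP counts of Tek there, against 78.9% of those of Tie1.

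Apln in FAPs was at 12.9 CPM (9.94 to 16.4) at day 2 and 2.33 CPM (1.404 to 3.64) at day 7, in both libraries lower than its ambient level, and SoupX removed 14.6% and 10.9% of these counts. At day 2 Apln also had 29 counts in 6 of 21 MuSCs and 22 counts in 2 of 29 B cells, and 0 counts under both labels at day 7. At least 3 endothelial marker counts were held by 6 of those MuSCs and 3 of those B cells, with the endothelial list at 587 and 1561 CPM. Under immune labels most Apln counts sat in cells with endothelial markers. Apln had 110 counts in 13 of the 293 T cells at day 7, and 25 T cells held at least 3 endothelial marker counts. Without such cells, Apln under all immune labels fell from 114 counts to 4 at day 7 and from 167 to 34 at day 2. Angpt2 kept 82 of its 142 counts at day 2, at 4.30 CPM (3.42 to 5.34), which was lower than its ambient level of 19.98 CPM.

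**Figure D4:**
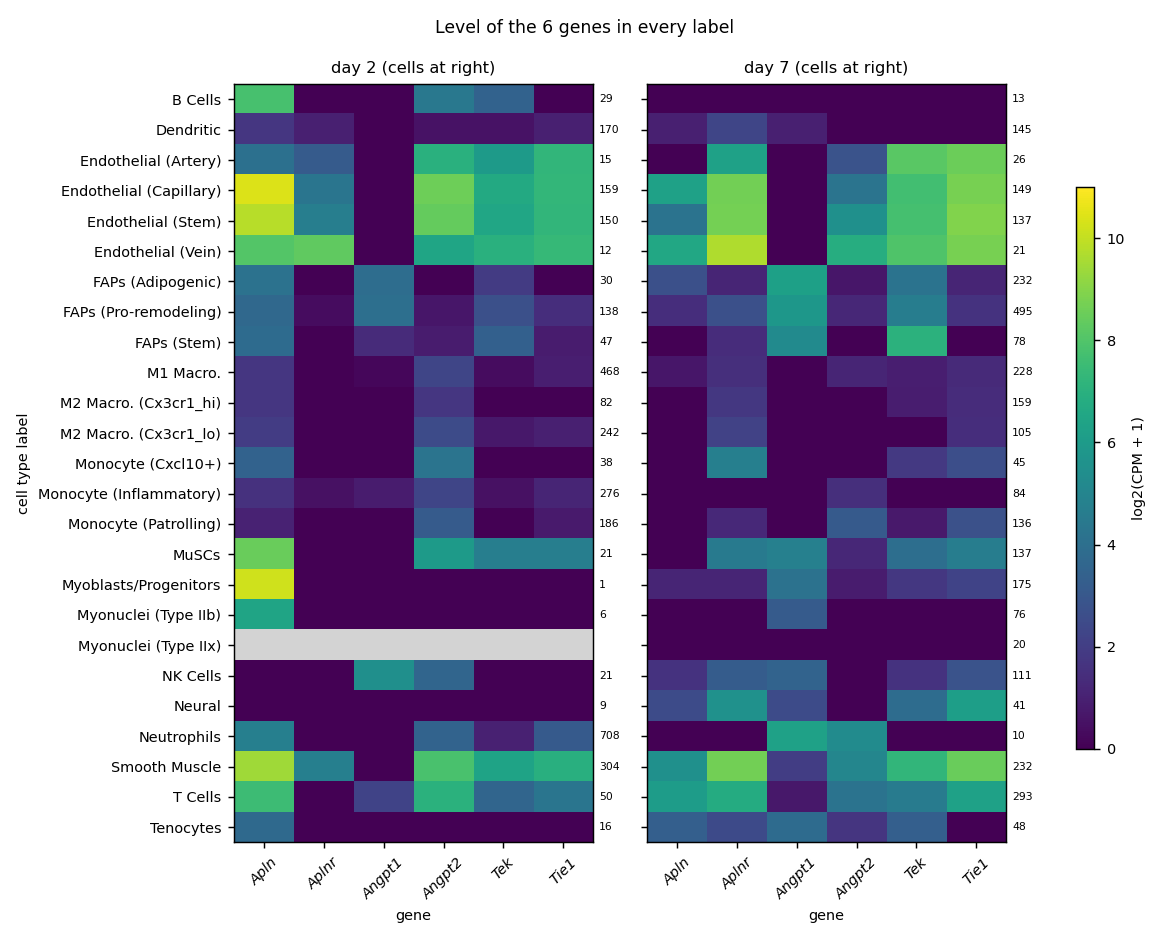
Level of the 6 genes as log2(CPM + 1) (colour) in every cell type label (rows) at day 2 and day 7, with the number of kept cells at the right of each row and grey where a label held none. Among rows with 20 or more cells Angpt1 is brightest in Adipogenic and Pro-remodeling FAPs at day 7, and Tek is seen in Stem FAPs at day 7 where Tie1 is at 0, while rows with few cells, such as the 1 myoblast at day 2, rest on few counts.

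Other genes of the pathways were taken from a list of 16, of which 8 had enough counts in the endothelial labels. Of these 1 was called higher at day 7 and 1 lower, where 13.9% and 9.05% of all genes tested were, and the median log2 ratio of the 8 was -0.01, against 0.07 over all genes tested. Ptprb, the endothelial phosphatase that acts on Tie2, was the gene called higher, at 592 CPM at day 2 and 1334 CPM at day 7, 2.26-fold (2.11 to 2.41). Ece2, a peptide-processing protease, was called lower, on 39 and 7 counts, with a ratio of 0.259 (0.0979 to 0.587). Its relative Ece1 was at 1005 and 606 CPM, a ratio of 0.603 (0.560 to 0.649) that did not reach 2-fold. Foxo1, a transcription factor held in check by Tie2 signalling, had a ratio of 0.960 (0.789 to 1.17), and Klf2, a flow-responsive factor, 1.10 (1.03 to 1.18). Adam17, a sheddase, had 1.78 (1.32 to 2.42). The integrin subunits Itga5 and Itgb1, which angiopoietins can bind, had 1.03 (0.795 to 1.32) and 0.858 (0.797 to 0.923). Of the other ligands, Apela, the second ligand of the apelin receptor, and Angpt4 had 0 counts in the endothelial labels in both libraries, as did the peptidase gene Mme. Lect2, Svep1, Dok2 and Grb14 had at most 3 counts each per library and were not tested. In the Smooth Muscle label 8 genes of this list were tested, and Ptprb alone was called, at 2.04-fold higher (1.93 to 2.15), where 13.5% of all genes tested were called higher.

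Tip cell genes, a textbook list of 10, were looked at in the same way. Of 8 with enough counts in the endothelial labels 1 was called higher and 2 lower, against 13.9% and 9.05% of all genes tested, with a median log2 ratio of -0.02. Pgf was 105-fold lower at day 7 (63.3 to 187) and Adm, which encodes the vessel-acting peptide adrenomedullin, 3.26-fold lower (2.29 to 4.76). Plvap, a protein of endothelial diaphragms, was 2.93-fold higher (2.51 to 3.43). Dll4, the Notch ligand of tip cells, and Cxcr4, a chemokine receptor, had ratios of 0.613 (0.532 to 0.705) and 0.618 (0.472 to 0.804), and Unc5b, Pdgfb and Nid2 had 1.70, 1.64 and 1.58. Esm1 and Kcne3 were not tested, with at most 10 counts per library. In the Smooth Muscle label 9 were tested, with Plvap (4.94-fold) and Nid2 (2.71-fold) called higher and Pgf (24.8-fold) called lower, against 13.5% higher and 7.35% lower of all genes tested there. The median log2 ratio was -0.16 against 0.11 over all genes.

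**Figure D5:**
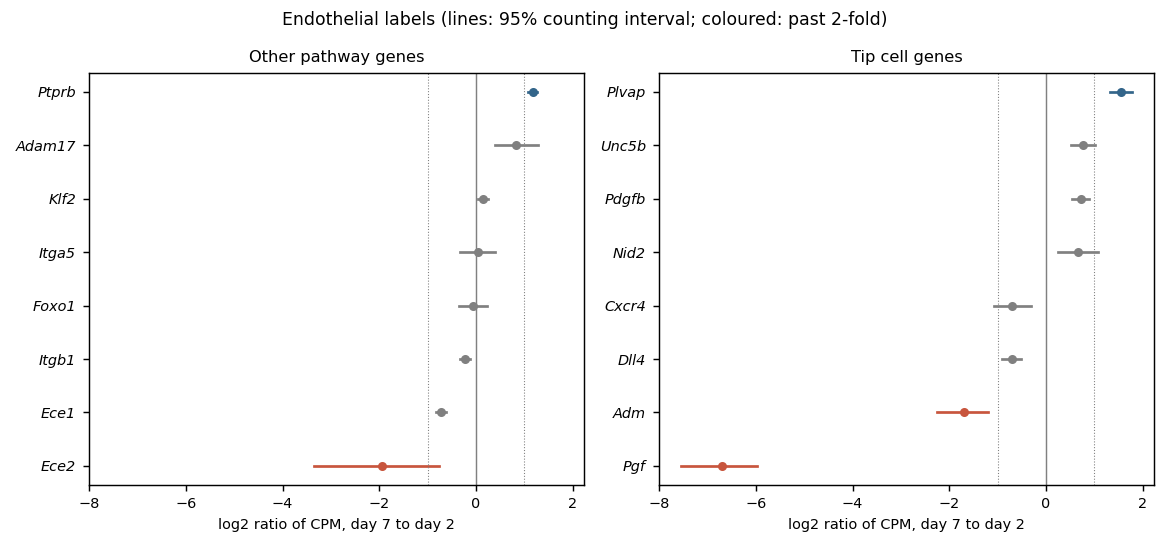
Log2 ratio of CPM at day 7 to day 2 in the endothelial labels (x axis) for the 8 tested genes of the other pathway genes and the 8 tested tip cell genes (y axes), with 95% counting intervals as lines and dotted lines at 2-fold. Coloured genes pass 2-fold, with Ptprb and Plvap higher at day 7 and Ece2, Adm and Pgf lower.

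Genes with the most similar pattern were sought over the 41 sums of a label and a day with at least 20 cells, among 12468 genes, by Pearson correlation of log2(CPM + 1). The sums of a day share a library, and all vessel labels share endothelial genes, so these values are descriptive. The 3 most like Apln were Sh2d5 (r = 0.85), Cars (0.84) and Angpt2 (0.83). For Angpt2 they were Nus1 (0.86), Sh3bgrl2 (0.84) and Chst1 (0.83). The genes most like Aplnr were C1qtnf9 (0.91), 4930578C19Rik (0.91) and Sox18 (0.90), an endothelial transcription factor. Tek was nearest to Ptprg (0.95), Mtmr11 (0.94) and Ramp2 (0.94), a partner of the adrenomedullin receptor, and Tie1 to Ccm2l (0.97), Kcna5 (0.97) and Dach1 (0.96). Angpt1 was nearest to Itm2a (0.84), AW551984 (0.83) and Eya2 (0.83). Among the members, Tie1 lay near Aplnr (0.87) and Tek (0.81), whereas Apln and Aplnr had an r of 0.31.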

How the data were processed

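Single-cell RNA sequencing libraries (10x Chromium v3) of tibialis anterior muscle at 2 and 7 days after notexin were analysed, with groups taken from the labels. The deposited values are UMI counts in whole numbers for each gene and barcode, and estimated counts after SoupX, which need not be whole, both made by the authors. The file headers name Cell Ranger 3.0.1 and the submitters' processing notes Cell Ranger 3.1.0, Seurat 3.1.5 and mm10. Cell type labels came from the deposited annotation, which the authors made on a large integrated collection after removing doublets with DoubletFinder. No doublet caller was run here. Labelled barcodes were kept with at least 750 genes, 1000 transcripts and at most 30% mitochondrial transcripts in the SoupX values, which removed 316 and 189. Labels with the word Endothelial formed the endothelial group and Smooth Muscle the mural one.

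Counts were summed per label and library and given as CPM. The 95% intervals are exact (Poisson for sums, Clopper-Pearson for shares, conditional binomial for ratios) and cover counting error only. Where a sum held 0 counts, folds were computed against 3 counts in that sum. No p-value is given, since each time point had 1 library. The members and gene lists were chosen with earlier results of these data known. Named genes were the members, the pathway and tip cell lists and the 3 genes most like each member, and a gene of the pathway list is not reported here. Ratio intervals were tested on simulated Poisson counts, the model they assume, so spread between cells or animals was not covered. Identifiers of 6 of 6 genes matched the annotation that gave coordinates. Python 3.11.15, numpy 2.4.6, scipy 1.17.1 and pandas 2.3.3 were used. Alternatives covered cell limits, SoupX values, scaling, marker-based classes, thinning and the barcodes taken as ambient. The split of the Smooth Muscle label, the split of the Vein label and the endothelial sums of fewer or more labels were chosen after seeing the data.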

Additional observations from a re-analysis of the deposited data

Results flagged for a closer look

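Called barcodes that met the limits but had no entry in the annotation, 680 at day 2 and 477 at day 7, enter none of the comparisons above and also held the genes above the floor of 3 counts. At day 2 their levels were 145 CPM for Apln, 6.64 for Aplnr, 2.97 for Angpt1, 40.4 for Angpt2, 18.5 for Tek and 25.9 for Tie1. At day 7 they were 43.6 CPM for Apln, 164.7 for Aplnr, 4.94 for Angpt1, 10.2 for Angpt2, 51.6 for Tek and 133 for Tie1. At least 3 endothelial marker counts were held by 226 and 211 of these barcodes. In those, Apln was 5.57-fold lower at day 7 (4.64 to 6.72), Angpt2 7.07-fold lower (4.81 to 10.7), Aplnr 14.8-fold higher (10.6 to 21.4), Tek 1.66-fold higher (1.28 to 2.14) and Tie1 3.001-fold higher (2.48 to 3.65), while the proliferation markers stood at 97.7 CPM at day 2 and 1742 at day 7.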

How the results depend on the processing

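Values are log2 ratios. In the endothelial labels all 5 genes kept their direction under every alternative run, with 41 of 55 values inside the counting interval. Outside it were, with mural-marker cells left out, Apln -3.86 and Aplnr 3.49. With classes from markers alone they were Apln -3.61, Aplnr 3.77, Tek 0.81 and Tie1 1.71, and after 1 random draw of thinning Aplnr 3.48 and Tie1 1.26. The mean over cells gave Aplnr 3.63. Alternatives chosen after seeing the data gave Aplnr 3.22 with Smooth Muscle cells of endothelial markers added, Aplnr 4.43 and Angpt2 -4.41 in Capillary cells alone, and Aplnr 4.26 and Angpt2 -3.73 without Vein and Artery cells. In the Smooth Muscle label Angpt2 turned to 0.87 without endothelial-marker cells. With marker-based mural classes, taken from cells of any label, Angpt2 turned to 0.67, and Apln was -2.20, Tek 1.62 and Tie1 1.81. In the Smooth Muscle label 1 draw of thinning gave Tek 0.55 and Tie1 2.04. Another draw gave day 2 and day 7 levels of 77.8 and 148 CPM for Tek and 124 and 354 for Tie1. Smooth Muscle cells with endothelial markers only gave Aplnr 3.68, Angpt2 -4.10 and Tie1 1.77.

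Mural to endothelial ratios moved most with marker-based classes, whose mural cells came from any label and not from Smooth Muscle alone. At day 2 these gave Apln -6.34, Angpt2 -7.67, Tek -4.26 and Tie1 -8.21, and at day 7 Apln -4.93, Aplnr -7.14, Angpt2 -3.77, Tek -3.44 and Tie1 -8.11. Without cells of the other class's markers Angpt2 was -3.46 at day 2 and 0.50 at day 7, and Tie1 -4.65 at day 7. The mean over cells gave Apln -0.43 and Aplnr -0.59 at day 2. With 1 draw of thinning the values at day 2 were Apln -0.32, Aplnr -0.64, Tie1 -1.08 and Tek 0.023, the last with its sign turned, and Aplnr was -0.21 at day 7. In the other draw Tek did not turn at day 2, at 77.8 CPM against 91.9 in the endothelial labels. The Angpt2 to Angpt1 count ratio at day 7 was 17.9 in endothelial and Smooth Muscle cells, above 1 where all cells gave 0.356. The cause of these shifts was not tested. An alternative that left a sum with 0 counts has no value here. Counts of genes past 2-fold stayed within 1.5 times under all 3 alternatives, and median-of-ratios scaling shifted ratios by 0.05 and 0.09. Of the shares of cells taken at 2 or more UMIs or after thinning, 41 lay outside their counting interval and 7 inside. No paired analysis was possible because each time point had 1 library. Depth limits the Artery and Vein labels and the cells with mural markers only, which held at most 27 cells each.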
